A study of Drosophila melanogaster with 12 samples.

Results

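Odorant-binding proteins are small secreted proteins of insects, and the genes described here are those whose symbol on the array starts with Obp and a digit. The rule found 47 genes among the 11982 named by probe sets that carry 1 gene name. Each gene was read through its probe set with the highest mean log2 intensity over the 12 arrays, and 25 of the 47 had a mean of at least 4. The other 22 are called dim, and no change is read from them.

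The flies were adult Drosophila melanogaster, starved overnight and then given either plain sucrose or sucrose containing 0.3% phenobarbital, a drug known to induce detoxifying enzymes. They were Canton S, a wild-type laboratory strain, or mutants of DHR96, a nuclear receptor encoded by Hr96. The 4 combinations of genotype and diet had 3 arrays each. The titles name the strains CS and E25, and E25 was taken as the mutant because no other strain is named. Neither the sex of the flies, the allele, nor whether arrays came from separate cultures is stated, so p-values measure the spread between arrays, which may be technical.

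Odorant-binding proteins are known from the lymph that bathes the sensory neurons of antennal and taste hairs. There they bind hydrophobic odorants and pheromones on their way to the receptors. Other members of the family are secreted outside the sense organs, among them proteins of the seminal fluid made in the male accessory gland. They often lie in clusters of neighbouring genes, and the number in each symbol gives the position on the cytological map.

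The 18769 probe sets had a median intensity of 38.5 to 47.5, depending on the array, and 44.4% to 45.6% of probe sets lay under a log2 value of 4. The log2 differences between 2 arrays of a group had an SD of 0.24 to 0.53. Hr96 lay between 8.20 and 8.85 in the 6 wild-type arrays and between 9.91 and 10.30 in the 6 arrays taken as mutant, which separates the genotypes but does not show a loss of function. Markers of male accessory gland (15 of 15 measured) and of yolk (3 of 3) had mean log2 values of at least 4. Averaged over genotypes, 13 of the 15 gland markers were called lower on phenobarbital, as were 1 of 11 readable testis markers, 2 of 11 eggshell markers, 1 of 3 yolk markers and 1 of 2 neuron markers. Of 2 readable fat body markers 1 was called higher, and none of 4 antennal, 3 photoreceptor and 3 flight muscle markers was called. Of the 10341 probe sets with a mean log2 of at least 4, 4.67% were called lower and 5.26% higher. The number of arrays limits the precision.

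More of the readable Obp genes fell on phenobarbital than rose. Averaged over the genotypes, Obp56e (2.96-fold), Obp99c (2.72-fold) and Obp56d (1.71-fold) rose. In the same comparison Obp99b (7.24-fold), Obp56g (2.86-fold), Obp22a (2.34-fold), Obp69a (2.14-fold), Obp56f (2.05-fold), Obp19a (1.79-fold), Obp49a (1.71-fold), Obp99a (1.62-fold), Obp19d (1.57-fold) and Obp56a (1.54-fold) fell. A gene was called with limma at an adjusted p under 0.05 over all probe sets and at least a 1.5-fold change. Of the 25 readable genes 3 were called higher and 10 lower, against 5.26% and 4.67% of the 10341 probe sets with a mean log2 of at least 4. Their median log2 change was -0.54, that of those 10341 probe sets 0.02, and 20 of the 25 changes were negative.

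Within each genotype fewer genes were called. In wild type 3 rose and 3 fell, where the background was 4% higher and 3.42% lower. In the mutant 3 rose and 4 fell, where it was 5.36% and 2.75%. The risen genes were Obp56d, Obp56e and Obp99c in both. Obp56g and Obp69a fell in both, Obp99b passed the test in wild type and Obp19d and Obp49a in the mutant.

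When each array was left out in turn, 9 of the 13 averaged calls were kept in each of the 12 fits, 3 higher and 6 lower. The other 4, Obp22a, Obp56a, Obp56f and Obp99a, lost the call in 7, 9, 10 and 6 of the 12 fits, with adjusted p up to 0.0924. In wild type the 3 rises were kept in each fit, whereas none of the 3 falls was called without wild-type sucrose replicate 1 or 2, or without wild-type phenobarbital replicate 2 or 3. When the 2 diets of a genotype were fitted alone, the calls of Obp56d (adjusted p = 0.0549), Obp69a (0.078) and Obp99b (0.2) were lost in wild type, and those of Obp49a (0.0574), Obp56g (0.0637) and Obp69a (0.0836) in the mutant, where Obp99b was gained.

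**Figure D1:**
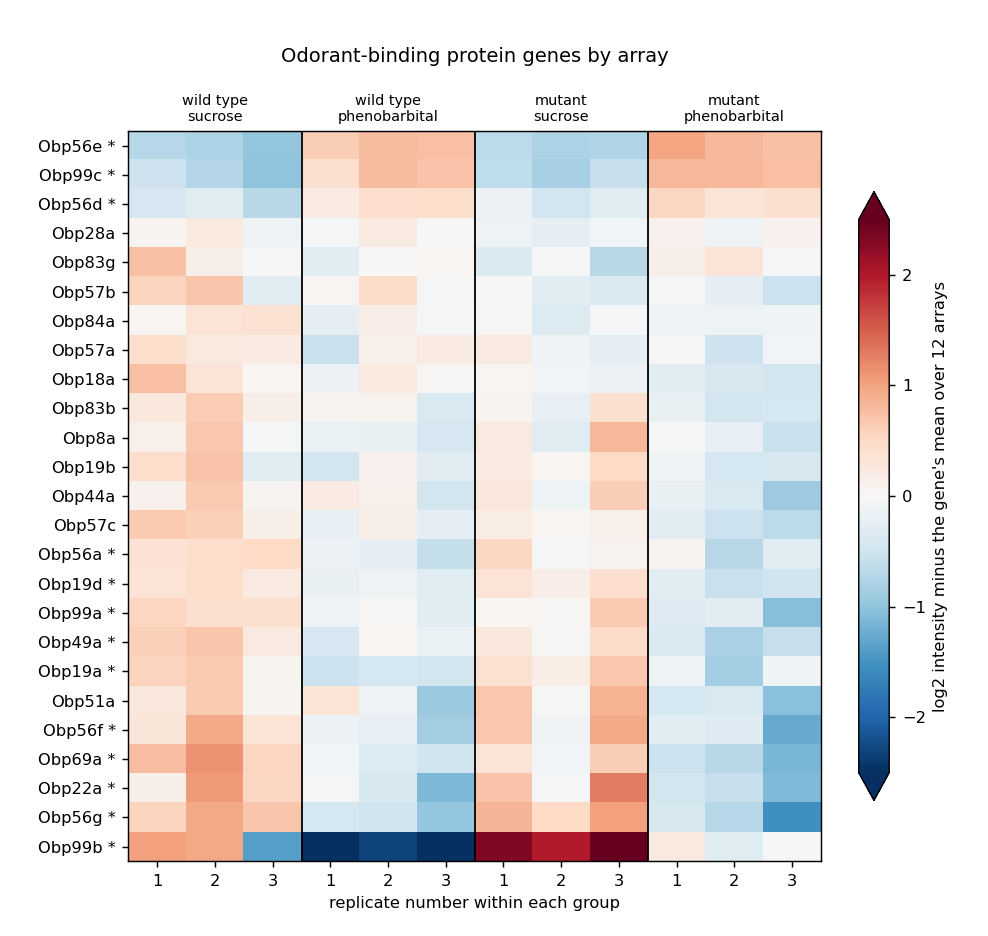
Each row is 1 of the 25 readable Obp genes and each column 1 array, grouped by genotype and diet; the colour is the log2 intensity minus the gene's mean over the 12 arrays, and an asterisk marks the 13 genes called for phenobarbital averaged over genotypes. Obp56e, Obp99c and Obp56d are high in the 6 phenobarbital arrays, and Obp99b is lowest in the 3 wild-type arrays on phenobarbital; the colour scale ends at 2.5 on either side.

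Genes known from the antenna included 1 that rose and 3 that fell on phenobarbital, of 7 readable among 8 measured (averaged over genotypes). The background was 5.26% higher and 4.67% lower. Obp56d, found in antenna, palps and taste organs, had log2 values of 11.84, 11.96 and 11.57 in wild type on sucrose and 12.47, 12.68 and 12.70 on phenobarbital. In the mutant it had 12.12, 11.79 and 11.96 on sucrose and 12.78, 12.59 and 12.67 on phenobarbital. Every phenobarbital array of either genotype thus lay above every sucrose array, by a log2 change of 0.83 ± 0.12 (SE; adjusted p = 0.00319, limma) in wild type and 0.72 ± 0.12 (adjusted p = 0.00647) in the mutant.

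Obp69a, an antennal protein, went the other way. It had 7.90, 8.25 and 7.66 in wild type on sucrose against 7.06, 6.78 and 6.63 on phenobarbital, and 7.45, 7.06 and 7.75 in the mutant on sucrose against 6.59, 6.43 and 5.99. Within each genotype the diets did not overlap. The log2 changes were -1.11 ± 0.23 (adjusted p = 0.022) in wild type and -1.08 ± 0.23 (adjusted p = 0.024) in the mutant. Each of these calls was lost in 4 of the 12 fits that left out 1 array, with adjusted p up to 0.0821 and 0.0951. In wild type those arrays were sucrose replicates 1 and 2 and phenobarbital replicates 2 and 3, in the mutant sucrose replicates 1 and 3 and phenobarbital replicates 2 and 3. The averaged change of -1.10 ± 0.16 (adjusted p = 0.00213) was called in each of the 12.

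Obp19d, secreted in the antenna and in other sense organs, changed less but with little spread. Its values were 12.83, 12.94 and 12.73 in wild type on sucrose and 12.32, 12.37 and 12.19 on phenobarbital, then 12.84, 12.67 and 12.92 in the mutant on sucrose and 12.22, 11.94 and 12.00 on phenobarbital. No phenobarbital array reached a sucrose array. The averaged log2 change was -0.65 ± 0.07 (adjusted p = 0.000244). The wild-type change of -0.54 ± 0.10 had an adjusted p of 0.0101 and missed only the minimum fold.

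Obp19a, also of the antenna, had 8.03, 8.13 and 7.54 in wild type on sucrose and 6.93, 7.03 and 7.02 on phenobarbital. The mutant arrays read 7.85, 7.66 and 8.15 on sucrose and 7.34, 6.61 and 7.37 on phenobarbital. The 6 phenobarbital arrays lay below the 6 sucrose arrays, with an averaged log2 change of -0.84 ± 0.16 (adjusted p = 0.0096). Its second probe set gave -0.60 (adjusted p = 0.0226).

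The remaining antennal genes were not called. Obp83b, of pheromone-sensing hairs, gave -0.44 ± 0.14 averaged over genotypes (adjusted p = 0.0954). Obp84a, of the antenna's coeloconic hairs, stayed between 4.11 and 4.83 in every array, with a change of -0.14 ± 0.09. Obp28a, which lay between 8.43 and 8.92, gave 0.08 ± 0.08 with a 95% interval of -0.10 to 0.26, so a change of 1.5-fold lies outside the interval. Obp59a was dim.

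The literature list places 6 readable genes in a male accessory gland group. Averaged over genotypes, 1 of them was called higher and 3 lower, against a background of 5.26% and 4.67%. Negative changes were seen in 5 of the 6, as in 20 of the 25 readable genes of the family. Where in the male tract each gene is made was not tested. Obp56g, a seminal protein needed for the mating plug, had 13.59, 13.98 and 13.73 in wild type on sucrose and 12.61, 12.55 and 12.08 on phenobarbital. Mutant values were 13.89, 13.53 and 14.07 on sucrose and 12.63, 12.32 and 11.50 on phenobarbital. The diets did not overlap in any array. The log2 change was -1.35 ± 0.29 in wild type (adjusted p = 0.0244) and -1.68 ± 0.29 in the mutant (adjusted p = 0.00759). The wild-type call was lost without any 1 of the wild-type sucrose arrays or without wild-type phenobarbital replicate 2 or 3 (adjusted p up to 0.0918).

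Obp22a and Obp56f, also proteins of the seminal fluid, passed the test only in the average over genotypes. Obp22a had 8.50, 9.40 and 8.87 in wild type on sucrose against 8.32, 7.96 and 7.23 on phenobarbital, and 9.06, 8.31 and 9.63 in the mutant on sucrose against 7.89, 7.78 and 7.24 (averaged change -1.23 ± 0.29, adjusted p = 0.0259). Only 1 wild-type phenobarbital array, at 8.32, reached the lowest sucrose value, the 8.31 of a mutant array.

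Obp56f had 9.83, 10.48 and 9.87 in wild type on sucrose against 9.38, 9.33 and 8.67 on phenobarbital. Mutant flies gave 10.20, 9.45 and 10.47 on sucrose and 9.26, 9.20 and 8.27 on phenobarbital (averaged change -1.03 ± 0.26, adjusted p = 0.0371). The diets did not overlap, and in the mutant on sucrose the arrays spread widely.

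Obp51a, another seminal protein, ran from 11.87 to 12.70 on sucrose and from 10.80 to 12.18 on phenobarbital, with overlap and no call (-0.86 ± 0.25, adjusted p = 0.0703). Obp8a was near the reading limit at 3.87 to 5.27 (-0.51 ± 0.21, adjusted p = 0.197), and Obp56i was dim.

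Obp56e, placed in the same literature group, rose. It had 10.10, 10.02 and 9.82 in wild type on sucrose and 11.44, 11.61 and 11.56 on phenobarbital. In the mutant it had 10.15, 10.03 and 10.06 on sucrose and 11.80, 11.62 and 11.55 on phenobarbital. The gap between the highest sucrose array and the lowest phenobarbital array exceeded the spread within any group. The log2 changes were 1.55 ± 0.09 in wild type (adjusted p = 1.53e-05) and 1.58 ± 0.09 in the mutant (adjusted p = 1.03e-05), the lowest adjusted p of the family in each.

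Markers of the accessory gland fell on phenobarbital too. All 15 measured markers had negative changes on phenobarbital and 13 were called lower in the average over genotypes (median log2 change -1.14), among them the seminal genes Acp76A (-2.34 ± 0.32) and Sems (-1.94 ± 0.34). Their summed intensity was 96260 to 128300 in wild type on sucrose and 39860 to 73170 on phenobarbital, and 91070 to 144200 and 36370 to 61900 in the mutant. Replicate 3 of each phenobarbital group had the lowest sum (39864 and 36370), and the lowest Obp56g, Obp22a, Obp56f and Obp51a of its group. This was not particular to the gland. The sums of testis (17598 and 12805), antennal and photoreceptor markers were also lowest in replicate 3 of each phenobarbital group. Those of eggshell, yolk, fat body, neuron and flight muscle markers were not lowest there in both groups. In RNA of adult flies fewer cells of a type and less RNA per cell cannot be told apart, and the part of the gland in these changes was not tested.

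Genes known from taste organs had 2 readable members of 3. Obp49a, which binds bitter compounds and dampens sweet taste, had 9.68, 9.78 and 9.30 in wild type on sucrose and 8.65, 9.12 and 8.92 on phenobarbital. The mutant arrays read 9.35, 9.12 and 9.56 on sucrose and 8.71, 8.26 and 8.49 on phenobarbital. Within a genotype the diets did not overlap. It fell in the mutant (-0.86 ± 0.18, adjusted p = 0.0242) and in the average (-0.77 ± 0.13, adjusted p = 0.0044), while in wild type the change of -0.69 ± 0.18 had an adjusted p of 0.0704. The mutant call was lost without mutant sucrose replicate 1 or 3 or mutant phenobarbital replicate 2 or 3 (adjusted p up to 0.1). Obp19b gave -0.53 ± 0.18 (adjusted p = 0.133), with overlap between the diets.

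**Figure D2:**
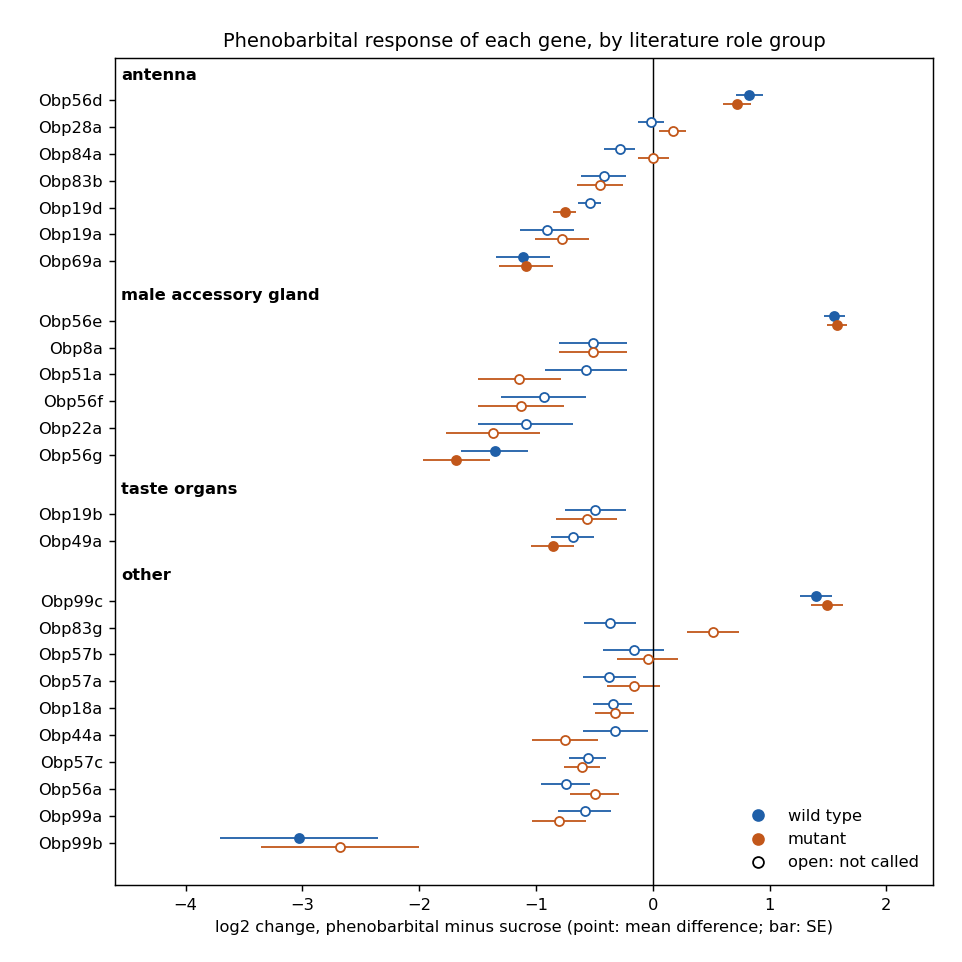
Points give the log2 change on phenobarbital against sucrose for each readable Obp gene in wild type (blue) and in the mutant (orange), with SE bars, in groups of tissues known from the literature; filled points were called. Obp56d, Obp56e and Obp99c lie to the right of 0 in both genotypes, and Obp99b lies farthest left, at -2.68 in the mutant and -3.03 in wild type.

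The remaining 10 readable genes included 1 that rose and 3 that fell, where the background was 5.26% higher and 4.67% lower. Obp99c had 12.36, 12.14 and 11.87 in wild type on sucrose and 13.28, 13.67 and 13.60 on phenobarbital. Mutant values were 12.25, 12.04 and 12.30 on sucrose and 13.71, 13.71 and 13.63 on phenobarbital. Every phenobarbital array was above every sucrose array. The log2 change was 1.39 ± 0.14 in wild type (adjusted p = 0.000343) and 1.49 ± 0.14 in the mutant (adjusted p = 0.000207).

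Obp99b, also known as tsx, is a male-biased gene of the fat body of the head, and it spread most. Its values were 8.20, 8.14 and 5.79 in wild type on sucrose and 3.84, 4.85 and 4.35 on phenobarbital. In the mutant they were 9.48, 9.15 and 10.83 on sucrose and 7.41, 6.87 and 7.14 on phenobarbital. Within each genotype the diets did not overlap, and 1 wild-type sucrose array, replicate 3, lay far below the other 2. The averaged log2 change was -2.86 ± 0.48 (adjusted p = 0.0044), called in each of the 12 fits that left out 1 array.

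In wild type the change of Obp99b was -3.03 ± 0.68 (adjusted p = 0.0317). Without wild-type sucrose replicate 3 it was -3.82 (adjusted p = 0.00284). The call was lost in 9 of the 12 fits, namely without any 1 of the phenobarbital arrays of either genotype, without wild-type sucrose replicate 1 or 2 and without mutant sucrose replicate 1, with adjusted p up to 0.115. On log2 of the intensity plus 16 it was -2.35 (adjusted p = 0.0681), also without a call. The mutant change of -2.68 ± 0.68 was not called (adjusted p = 0.0536). Of the wild-type phenobarbital arrays 1, at 3.84, was under the reading limit.

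The fat body storage gene Lsp2 was called higher on phenobarbital in the average over genotypes (4.06 ± 0.57, adjusted p = 0.00152, limma). By genotype it was called in the mutant (5.998, adjusted p = 0.00187) but not in wild type (2.117, adjusted p = 0.248). Its wild-type sucrose mean, 3.17, was under the reading limit. The summed intensity of 5 fat body markers was 7902 to 8805 in wild type on sucrose and 11540 to 12570 on phenobarbital, and 7884 to 10090 and 12530 to 14760 in the mutant. Of these markers apolpp (mean log2 13.24) and Lsp2 (6.52) were readable. The averaged change of apolpp was 0.38 ± 0.07 (adjusted p = 0.00794, limma), which missed only the minimum fold. It had the highest mean of the 5 markers and so weighed most in the sum. The female-biased fat body gene fit lay between 8.35 and 9.64 in the sucrose arrays and between 2.71 and 4.49 in the phenobarbital arrays. No test of fit is given here, and the part of these genes in the change of Obp99b was not tested.

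Obp99a had 10.88, 10.76 and 10.76 in wild type on sucrose against 10.22, 10.38 and 10.06 on phenobarbital. Mutant flies gave 10.39, 10.39 and 11.00 against 10.02, 10.07 and 9.28 (averaged change -0.69 ± 0.16, adjusted p = 0.0272). Every phenobarbital array lay below every sucrose array, though the smallest gap was narrow.

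Obp56a had 10.21, 10.31 and 10.35 in wild type on sucrose and 9.72, 9.64 and 9.27 on phenobarbital. In the mutant it had 10.37, 9.84 and 9.95 on sucrose and 9.94, 9.17 and 9.55 on phenobarbital. The mutant arrays overlapped, and the averaged change was -0.62 ± 0.15 (adjusted p = 0.0283).

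Obp57c passed the adjusted p but not the minimum fold (-0.58 ± 0.11, adjusted p = 0.00913). Obp44a, known from glia of the nervous system, had 12.03, 12.57 and 11.99 in wild type on sucrose and 12.13, 12.05 and 11.46 on phenobarbital. The mutant arrays read 12.21, 11.80 and 12.55 on sucrose and 11.74, 11.54 and 11.03 on phenobarbital, and it was not called (-0.54 ± 0.20, adjusted p = 0.159). Obp18a (-0.34 ± 0.12, adjusted p = 0.137), Obp57a (-0.27 ± 0.16, adjusted p = 0.372), Obp57b (-0.10 ± 0.19, adjusted p = 0.687) and Obp83g (0.08 ± 0.16, adjusted p = 0.724) were not called either, and that of Obp83g was -0.0076 without mutant sucrose replicate 3.

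**Figure D3:**
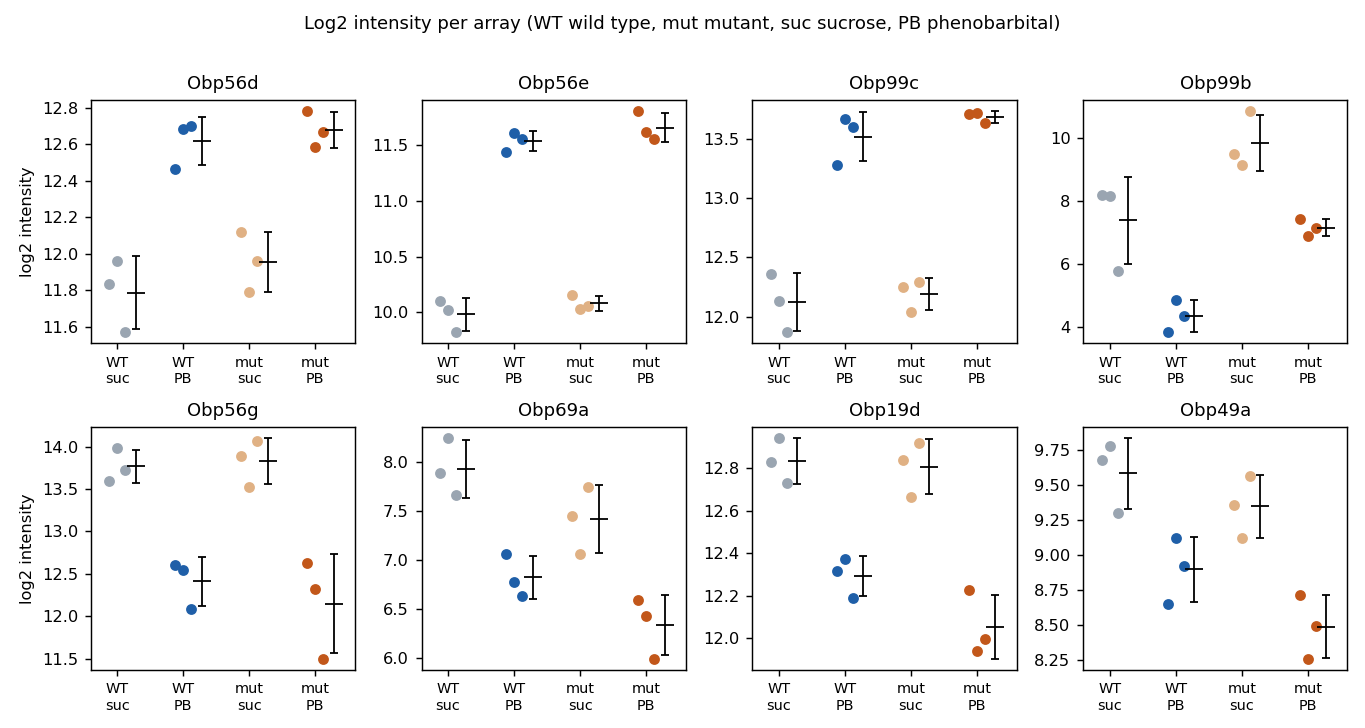
Each panel shows the log2 intensity of 1 gene in the 12 arrays (coloured points) with the group mean and SD (black, n = 3); the vertical axes differ between panels and do not start at 0. The top row holds the 3 genes that rose and Obp99b, whose mutant arrays lie above the wild-type arrays on the same diet; the bottom row holds 4 genes that fell.

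Of the genes that rose, Obp56e adjoins one that fell. Gene order was taken from the Release 6 plus ISO1 MT table, which matched 47 of the 47 members by identifier. In the group numbered 56, Obp56a to Obp56f follow each other without another protein-coding gene between them. Of these Obp56a fell, Obp56b and Obp56c were dim, Obp56d and Obp56e rose, and Obp56f, next to Obp56e, fell, a call lost in 10 of the 12 fits without 1 array. Obp56g, beside Or56a, fell and its neighbour Obp56h was dim, as was Obp56i. Obp56d and Obp56e had averaged 95% intervals of 0.58 to 0.97 and 1.42 to 1.71, against -1.62 to -0.45 for Obp56f and -1.98 to -1.06 for Obp56g.

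In the group numbered 99, the risen Obp99c (interval 1.22 to 1.66) and the fallen Obp99b (-3.94 to -1.77) were separated by dmrt99B, the dim Obp99d and Dup99B. Dup99B, a seminal peptide gene placed in the accessory gland marker list, gave -0.94 ± 0.22 (adjusted p = 0.024). The 4 genes numbered 19 are consecutive. Obp19a and Obp19d fell, Obp19b was not called and Obp19c was dim. The 3 neighbours Obp57a, Obp57b and Obp57c gave negative values and no call, with adjacent Obp57b and Obp57c at -0.10 ± 0.19 and -0.58 ± 0.11. Probes of near-identical family members could in part measure each other, which was not tested.

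**Figure D4:**
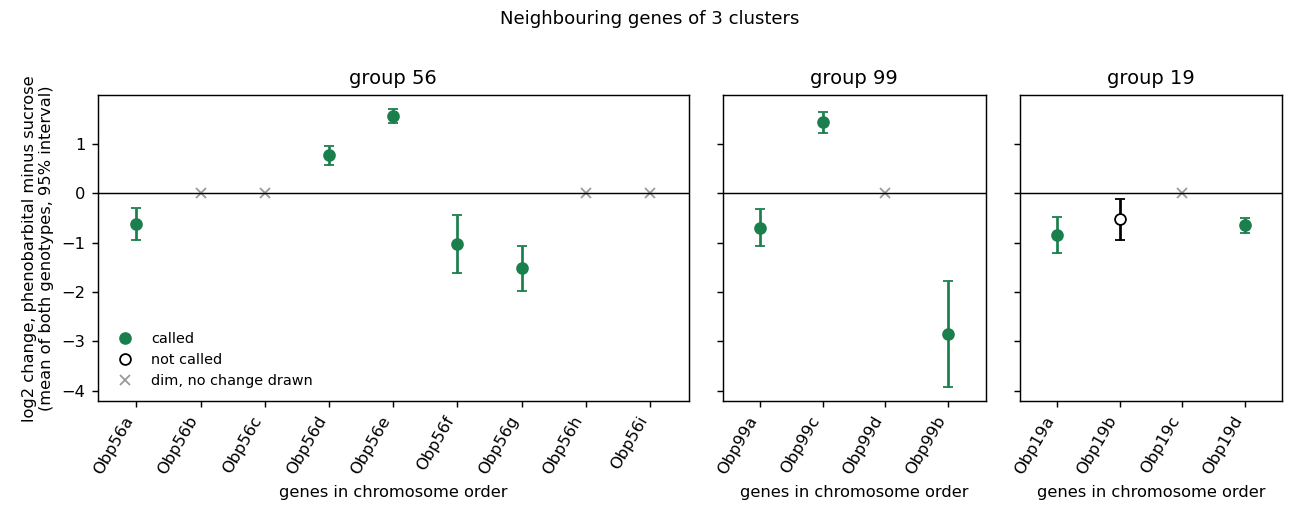
Points give the log2 change on phenobarbital averaged over genotypes with its 95% interval for the Obp genes of 3 groups, in chromosome order and not to scale; green points were called, the open point was not, and crosses at 0 mark dim genes with no change drawn. Obp56d and Obp56e lie above 0 between members that lie below it, as does Obp99c, while the 3 readable genes numbered 19 lie below 0.

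Between the genotypes Obp99b stood apart. On sucrose no readable member was called (background 0.319%), nor on phenobarbital (background 0.193%). At an unadjusted p under 0.05 there were 4 of 25 on each diet, against 1817 of all 18769 probe sets on sucrose and 2151 on phenobarbital. Unlike the 25 genes, these include probe sets with a mean log2 under 4. Averaged over the diets 1 of 25 was called, Obp99b, where the background was 0.764%. It was 6.14-fold higher in the mutant (log2 difference 2.62 ± 0.48, adjusted p = 0.0496), and every mutant array lay above every wild-type array on the same diet.

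The differences of Obp99b were 2.44 ± 0.68 on sucrose (adjusted p = 0.224) and 2.79 ± 0.68 on phenobarbital (adjusted p = 0.261). Its averaged call was lost without any 1 of the 12 arrays except wild-type sucrose replicate 3, with adjusted p up to 0.119. Without that replicate the difference was 2.22 (adjusted p = 0.0195). Among tissue markers averaged over the diets, 1 of 3 yolk genes, Yp2 (0.81, adjusted p = 0.0496, limma), was called higher in the mutant. So was 1 of 2 readable fat body markers, the storage gene Lsp2 (4.58, adjusted p = 0.0122), while apolpp gave -0.09 (adjusted p = 0.406). On single diets Lsp2 was called on phenobarbital but not on sucrose. Of 3 flight muscle markers 2 were called lower, and 11 eggshell markers had a median of 3.93 with no call. The wild-type sucrose mean of Lsp2, 3.17, was under the reading limit. The part of these markers in the difference of Obp99b was not tested.

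The other members differed less between genotypes, and 20 of 25 averaged differences were negative (median -0.12, against 0.02 for probe sets with a mean of at least 4). Obp69a was lower in each mutant array than in each wild-type array on phenobarbital, and overlapped on sucrose (averaged difference -0.50 ± 0.16, adjusted p = 0.178). Obp57b gave -0.48 ± 0.18 (adjusted p = 0.227) and Obp18a -0.43 ± 0.12 (adjusted p = 0.132), without a call. For Obp56e the averaged difference was 0.11 with a 95% interval of -0.03 to 0.25, and for Obp99c 0.12 with an interval of -0.10 to 0.34.

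No Obp gene was called for a genotype difference in its response to phenobarbital by limma's interaction test, where the background was 0%. As the test called none of those probe sets, it cannot show that the responses were equal. Of the 25 genes 1 had an unadjusted p under 0.05, against 624 of all 18769 probe sets, those with a mean log2 under 4 included. That gene was Obp83g, with 5.48, 4.89 and 4.74 in wild type on sucrose and 4.46, 4.76 and 4.79 on phenobarbital. The mutant arrays read 4.38, 4.70 and 4.04 on sucrose and 4.88, 5.07 and 4.73 on phenobarbital. Its wild-type arrays overlapped between the diets and its mutant arrays did not, but the difference of 0.88 ± 0.31 had an adjusted p of 0.841.

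The precision of this difference varied between genes. Its 95% interval was -0.26 to 0.31 for Obp56e, -0.35 to 0.53 for Obp99c, -0.49 to 0.28 for Obp56d and -0.71 to 0.77 for Obp69a. It was -1.24 to 0.59 for Obp56g and -1.57 to 1.01 for Obp22a. That of Obp99b, -1.82 to 2.52, leaves a difference of several fold possible in either direction.

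Among the dim genes, 19 of 22 had every array between 1.92 and 2.61. They were Obp46a, Obp47a, Obp47b, Obp50a, Obp50d, Obp50e, Obp56b, Obp56c, Obp57e, Obp58b, Obp58c, Obp58d, Obp59a, Obp73a, Obp83cd, Obp83ef, Obp85a, Obp93a and Obp99d. The other 3 were Obp56h (2.64 to 3.67), Obp56i (2.41 to 3.63) and Obp19c. Obp19c read 2.82, 6.01 and 4.37 in the mutant on sucrose and at most 2.32 in the other 9 arrays. It was not called, and its second probe set stayed between 2.23 and 2.30. The lowest mean among readable members was 4.44 (Obp8a) and the highest among dim ones 3.07 (Obp56h). 

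Other genes of the chemical senses were mostly out of reach. Of 166 receptor genes of the Or, Gr and Ir families none had a mean log2 value of 4, and the highest was Orco, the co-receptor of odorant receptors, at 2.90. Another list of 20 measured genes holds Orco again and genes that act around the receptors, and 13 of the 20 were readable. Among them 2 were called lower on phenobarbital and none higher in the average over genotypes, where the background was 4.67% lower and 5.26% higher. All 13 changes were negative (median -0.38).

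These 2 were Phk-3, of the chemosensory protein family (-1.78 ± 0.16, adjusted p = 9.6e-05), and Jhedup, an esterase that can break down odorants (-0.82 ± 0.21, adjusted p = 0.0434). The antennal genes lush, a pheromone-binding protein (-0.34 ± 0.22), a10 (-0.28 ± 0.11), Os-C (-0.28 ± 0.13) and Snmp1 (-0.06 ± 0.05) were not called, with adjusted p from 0.171 to 0.49. The largest uncalled fall among the readable genes was that of a5 (-0.51 ± 0.14, adjusted p = 0.0512). The summed intensity of 5 antennal markers was 1062 to 1478 in wild type on sucrose and 949.5 to 1130 on phenobarbital, and 936.4 to 1278 and 793.9 to 1017 in the mutant. These ranges overlapped between diets in both genotypes. Their part in the falls of Obp69a, Obp19a and Obp19d was not tested.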

How the data were processed

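The deposited values are expression intensities per probe set on a linear scale, made by the authors with GCRMA, which corrects background, normalizes and summarises probes, per the submitters' processing notes; no version is stated in the sources used. Log2 of each intensity was taken, with no further scaling. Groups came from the sample titles. Gene names came from the platform annotation, and probe sets naming several genes (402) or none (4720) name no gene here.

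One mean per group was fitted to the 12 arrays and 18769 probe sets with limma 3.58.1 in R 4.3.3 (8 residual degrees of freedom, 8.8 with the prior). Within each contrast, p-values were adjusted by Benjamini-Hochberg over every probe set, and a call needed an adjusted p under 0.05 and at least 1.5-fold. Averaged effects are means of the 2 effects. The scripts were tested on simulated data. Readable genes could be named with values. The members, role groups, marker lists and tests were chosen with earlier results of these data known, and the role groups rest on the literature. Figures used Python 3.11.15 and matplotlib 3.10.9.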

Additional observations from a re-analysis of the deposited data

How the results depend on the processing

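Leaving out 1 array at a time gave 3 to 9 called Obp genes for phenobarbital in wild type (6 with every array), 5 to 9 in the mutant (7), 9 to 15 averaged over genotypes (13) and 0 to 2 for genotype averaged over diets (1), where the second was Obp57b. The genotype counts on either diet and the interaction count stayed at 0 in these fits and under every other setting tried. A 2-fold minimum left 4 in the mutant and 7 in the average. Testing only probe sets with a mean log2 of at least 4 gave 13 in the mutant, with fewer tests and another variance prior. Fitting only the 2 groups compared left 3 in wild type and 5 in the mutant, with fewer arrays to estimate the spread. The genotype call of Obp99b was lost, to 0, on log2 of the intensity plus 16 and with a replicate block; the cause was not tested. No called change of an Obp gene reversed. Among uncalled ones, the averaged change of Obp83g was -0.0076 to 0.19 without 1 array, and the interaction estimate ranged from -0.19 to 0.0027 for Obp56d, -0.050 to 0.10 for Obp56e, -0.025 to 0.22 for Obp99c and -0.059 to 1.15 for Obp99b, whose estimate on log2 of the intensity plus 16 was -0.20. The settings also included no minimum fold, quantile normalization, a robust prior that follows intensity, and the mean of a gene's probe sets. Equal replicate numbers were not read as pairs, since 7 of 18 such pairs had deviations correlating above 0.1 and 5 of 12 arrays correlated best with their own number. The correlations ran from -0.712 to 0.695 for equal numbers. For unequal numbers in different groups they ran from -0.789 to 0.688. Deviations from a group mean cancel within the group, so a positive correlation with 1 of its arrays brings negative ones with others. Deviations were thus strongly shared between some arrays of different groups, and the source was not tested. The replicate block gave 5 calls in wild type (Obp99b lost), 5 in the mutant (Obp49a and Obp69a lost) and 10 in the average (Obp22a, Obp56f and Obp99a lost). Genes under a log2 value of 4 could not be read.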

Other observations

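Another 4 probe sets name an Obp gene together with another gene, and 2 of them had a mean log2 of at least 4. That of Obp57d and Cpr57A, a cuticle protein gene, lay between 6.55 and 7.29, with a log2 change on phenobarbital of 0.01 averaged over genotypes (adjusted p = 0.972, limma). That of Obp50b and Obp50c lay between 4.03 and 5.43 (-0.41, adjusted p = 0.279). Neither was called, and the share of each gene in the signal is not known.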
